A study of Drosophila melanogaster with 3 samples.

Results

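Intronic binding regions of Zaf1 (CG6808) in genes that hold only a few of them are described here. Zaf1 is a zinc finger protein of Drosophila melanogaster. The members were chosen by signal, position and number per gene. From the 8091 regions that passed the authors' reproducibility filter (irreproducible discovery rate, IDR), the 300 of highest signal were set aside. A member had its summit, the point of highest signal within the region, over 500 bp from every annotated transcription start site (TSS), in no exon and inside a gene body. Its host, the longest gene that contains the summit, held 1 to 4 such summits. This left 1636 members, 20.2% of the IDR list (95% Wilson interval 19.4 to 21.1%), in 975 host genes. The same rule put 1820 regions in 222 genes with over 4 intronic summits each, here called many-peak introns, and 1391 regions outside genes.

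Chromatin immunoprecipitation with sequencing (ChIP-seq) was performed on whole prepupae of mixed sex from a transgenic fly line that expresses CG6808 fused at its C terminus to enhanced GFP. The fusion protein was captured with an antibody to GFP, as the descriptions state. The antibody field names CG6808 instead. All 3 samples, biological replicates by their labels, form 1 group, and no conditions can be compared. DNA was sonicated to 200 to 800 bp. The age field reads 24 days, long for prepupae, and the stage field was followed. Whole animals mix many cell types, and a region bound in few cells cannot be told apart from one bound weakly in many. Read depth was unknown, and no untagged line was analysed here. Each of the 3 replicate lists held 30000 regions, and their signals were not on 1 scale. The members' median signal was 146.7 for replicate 1, 67.3 for replicate 2 and 67.5 for replicate 3.

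Introns of flies carry many of the enhancers and silencers that control their own gene or a neighbour, and the first intron, next to the promoter, often holds several. Zinc finger proteins read short DNA sequences through tandem fingers, and many of those studied in flies act at promoters or at boundaries between chromatin domains. In ChIP-seq of sonicated DNA, the summit marks where recovered fragments overlap most, and a recognised sequence usually lies at or near it. The authors' signal per region is used below. It was read from the place that holds the signal in the narrowPeak layout. The caller is not given in the sources used here, so that the value is a height over the control alignment is an assumption.

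The sequences below show the base composition at 3 of the strongest members. They also show the arrangement of a 5-base core, CACTG on one strand and CAGTG on the other, around summits. Each is 201 bases of the plus strand of the Release 6 genome (dm6), 100 bases on either side of the pooled summit, credited to RefSeq. Capitals mark every copy of the core. The first 3 are among the 6 strongest members, and only the region in CG17834 holds the core.
Ctps, chr3L:15107875-15108075: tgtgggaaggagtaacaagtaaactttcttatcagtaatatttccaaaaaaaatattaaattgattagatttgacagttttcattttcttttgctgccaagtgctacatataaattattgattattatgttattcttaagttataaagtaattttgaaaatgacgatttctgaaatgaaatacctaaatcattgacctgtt
CG17834, chr2L:8534756-8534956: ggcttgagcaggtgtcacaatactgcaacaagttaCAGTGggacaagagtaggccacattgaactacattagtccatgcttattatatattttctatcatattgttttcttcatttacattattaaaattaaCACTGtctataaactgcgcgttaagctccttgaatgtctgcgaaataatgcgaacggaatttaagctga
Baldspot, chr3L:16660448-16660648: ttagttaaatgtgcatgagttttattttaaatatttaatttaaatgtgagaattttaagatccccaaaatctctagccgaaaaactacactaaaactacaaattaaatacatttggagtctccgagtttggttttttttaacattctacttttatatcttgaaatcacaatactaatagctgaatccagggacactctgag
The next 5 are strong members outside those considered above and lie at least 500 bp from any other IDR summit. They hold CACTG at 50 to 110 bp on the left of the summit and CAGTG at 50 to 110 bp on its right. This arrangement is called an inward-facing pair. Not every arm was considered, so stronger members with such a pair may exist. The core was chosen with earlier results of these data known.
CG34417, chrX:6549796-6549996: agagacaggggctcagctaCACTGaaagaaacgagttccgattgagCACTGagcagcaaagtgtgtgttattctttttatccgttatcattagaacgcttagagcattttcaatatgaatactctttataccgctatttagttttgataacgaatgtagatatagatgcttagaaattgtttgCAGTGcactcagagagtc
tnc, chr3R:25010148-25010348: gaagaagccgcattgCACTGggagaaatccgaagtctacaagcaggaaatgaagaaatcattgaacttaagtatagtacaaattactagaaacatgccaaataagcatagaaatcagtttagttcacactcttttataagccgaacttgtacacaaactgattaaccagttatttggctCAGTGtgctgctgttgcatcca
loco, chr3R:22624867-22625067: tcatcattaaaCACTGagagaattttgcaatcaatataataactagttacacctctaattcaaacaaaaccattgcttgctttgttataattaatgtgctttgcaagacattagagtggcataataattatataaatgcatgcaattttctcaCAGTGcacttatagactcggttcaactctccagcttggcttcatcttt
cpo, chr3R:17946278-17946478: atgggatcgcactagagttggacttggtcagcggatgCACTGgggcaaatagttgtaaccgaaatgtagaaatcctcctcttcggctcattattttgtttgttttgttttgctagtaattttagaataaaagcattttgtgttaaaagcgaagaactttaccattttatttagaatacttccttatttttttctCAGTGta
beat-IIIc, chr2L:17243432-17243632: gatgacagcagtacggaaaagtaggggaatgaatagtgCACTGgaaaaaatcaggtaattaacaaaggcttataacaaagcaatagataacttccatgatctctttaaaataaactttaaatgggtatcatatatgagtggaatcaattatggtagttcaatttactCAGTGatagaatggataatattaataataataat
In tnc, which encodes the extracellular matrix protein tenectin, the middle bases of the 2 cores lay at -83 and 81 bp from the summit. In loco, which encodes a regulator of G protein signalling, they lay at -87 and 55 bp. cpo encodes the RNA-binding protein Couch potato, and beat-IIIc a cell surface protein of the immunoglobulin family. The pooled signals of these members were 1430.2 in CG34417, 831 in tnc, 764 in loco, 702 in cpo and 674 in beat-IIIc. In CG17834 the cores face the other way, with CAGTG at -63 and CACTG at 34 bp.

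The summits sat in A+T-rich stretches. Within 30 bp of a member's summit 35.4% of bases were G or C, against 39.4% at 50 to 110 bp and 44.3% at 200 to 300 bp. The eligible intron sequence of the host genes, all of their bases that a member's summit could have occupied, held 40.2%. Around each replicate's own summits the centre held 35.5% ± 0.157 G + C and flanks 500 bp away held 42.1% ± 0.0497 (SD, n = 3 replicates). The difference was -6.61 ± 0.206 percentage points and lay between -6.74 and -6.37 in the 3 replicates, with exact two-sided p = 0.25 in a sign-flip permutation test (0.278 after Benjamini-Hochberg adjustment over the 10 comparisons computed). With 3 replicates 0.25 is the smallest p that this test can give, so no comparison here could pass 0.05. Of the 3272 flank windows, 12.7% were centred in an exon. Whether that contributes to the difference was not tested.

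**Figure D1:**
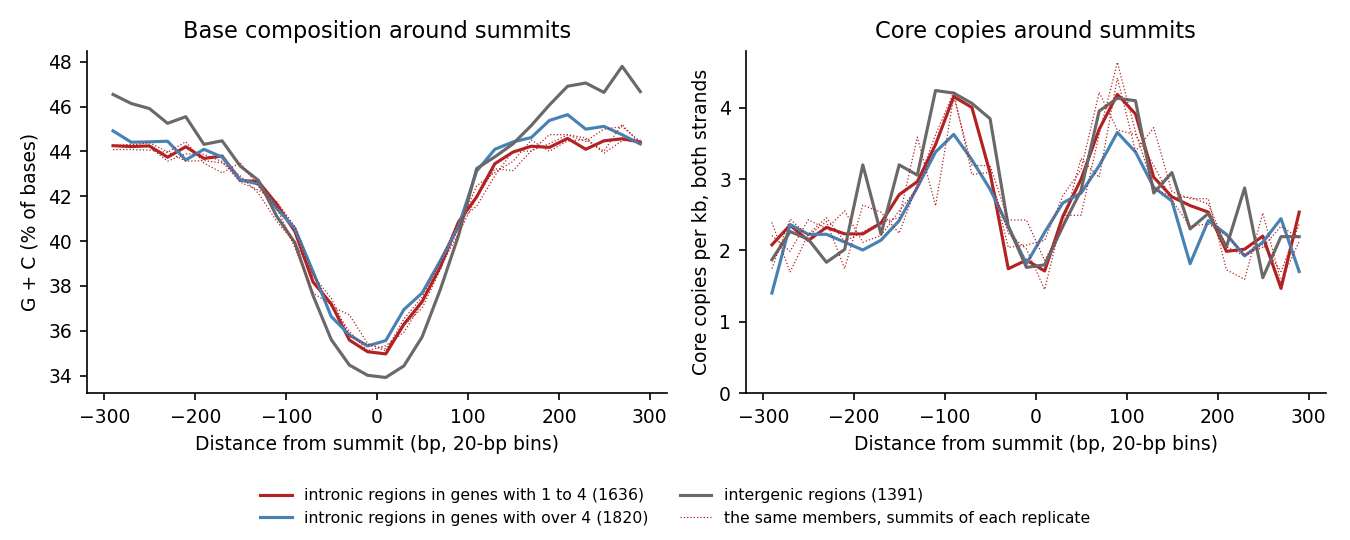
G + C content (left, percent of bases) and copies of the core on either strand per kb (right) against distance from the summit in 20-bp bins, for the 1636 members, 1820 many-peak introns and 1391 intergenic regions around pooled summits. Dotted lines give the members around each replicate's summits. Base composition is lowest at the summit in all 3 sets, while the core is most frequent between about 50 and 110 bp from it.

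The depth of the trough stood in the same order in all 3 replicates, deepest in intergenic regions. It was deeper at members (-6.61 ± 0.206 percentage points) than at many-peak introns (-5.84 ± 0.213), a difference of -0.767 ± 0.246 points (SD, n = 3, exact p = 0.25, adjusted 0.278). It was shallower at members than at intergenic regions, where it was -8.90 ± 0.3995, by 2.29 ± 0.224 points (exact p = 0.25, adjusted 0.278). Against both other sets, part of the difference lay in the flanks. Within 30 bp of the summits members held 35.4, 35.4 and 35.7% G + C in replicates 1, 2 and 3. Many-peak introns held 35.9, 35.6 and 36.0% there, and intergenic regions 34.1, 33.8 and 34.8%. The share of flanks centred in an exon is given for members only.

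Among the members the trough deepened with signal. Divided into 4 classes of 409 by pooled signal, G + C content within 30 bp was 32.4% in the strongest, 34.7% and 36.7% in the next 2 and 37.8% in the weakest. Minus that of flanks it was -9.82 to -9.11 points in the strongest class over the 3 replicates' summits, and -4.93 to -4.22 points in the weakest. These ranges did not overlap. The printed region in Ctps, which encodes CTP synthase, held 26.2% G + C within 30 bp of its summit, and that in CG17834 held 18.0%. The pattern was not uniform, since the strong members in stg and goe had 49.2% and 44.3%.

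**Figure D2:**
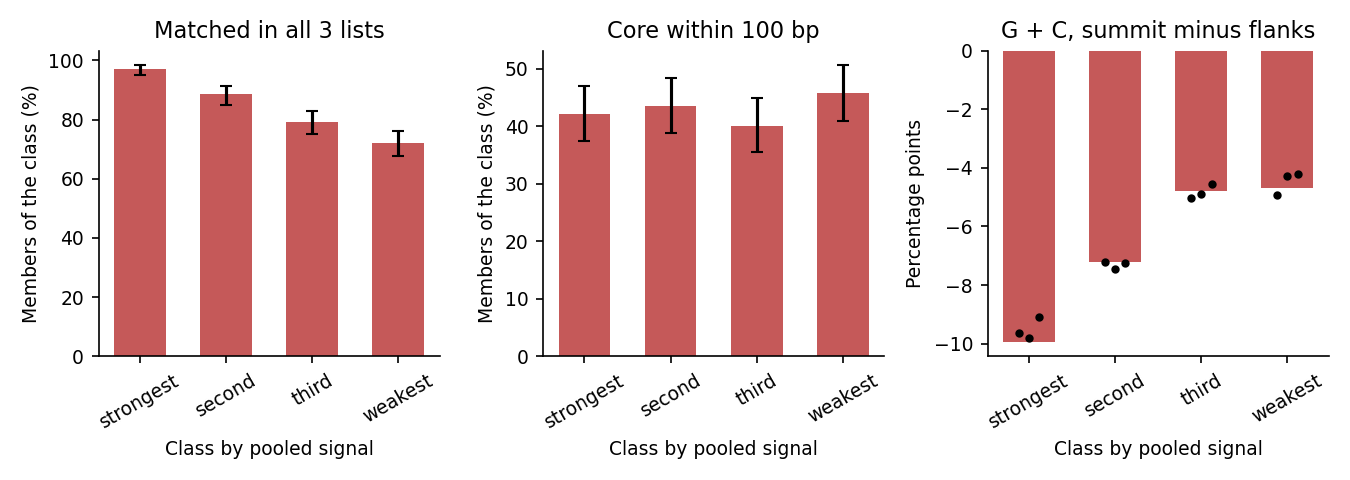
Members divided into 4 classes of 409 by pooled signal, the strongest at the left. Bars give the share matched in all 3 replicate lists, the share with the core within 100 bp (both with 95% Wilson intervals) and the G + C content within 30 bp of the pooled summit minus that of flanks (points, the 3 replicates). Matching falls from 97.1% in the strongest class to 72.1% in the weakest and the trough becomes shallower, while the core shares lie between 40.1% and 45.7% with overlapping intervals.

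The core was present within 100 bp of the summit in 701 members, or 42.8% (95% Wilson interval 40.5 to 45.3%). This was close to the 43.4% of all IDR regions. The same share was 42.9% in many-peak introns and 47.2% in intergenic regions. In flanks of equal width 500 bp from the members' summits it was 29.2%. Around the replicates' own summits, 44.1% ± 0.786 of members and 28.5% ± 0.358 of their flanks held the core (SD, n = 3). The difference of 15.6 ± 0.756 percentage points was of 1 sign in 3 of 3 replicates (exact p = 0.25, adjusted 0.278). The members' share minus that of intergenic regions (47.6% ± 0.285) was -3.49 ± 0.634 points and below 0 in 3 of 3 replicates (exact p = 0.25, adjusted 0.278). Against many-peak introns (43.3% ± 0.148), the members differed by 0.798 ± 0.756 points, about the spread between replicates (exact p = 0.25, adjusted 0.278).

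The core was placed beside the summits, in the shoulders of the A+T-rich stretch. Members held 1.89 copies per kb within 30 bp of the summit, 3.74 per kb at 50 to 110 bp and 2.12 per kb at 200 to 300 bp, against 1.73 per kb over the eligible intron sequence of the hosts. Around replicate summits the ratio of the middle zone to the centre was 1.78 ± 0.265 (SD, n = 3). In the strongest class the density was 1.20 per kb at the centre and 4.57 at 50 to 110 bp. In the weakest it was 2.16 and 3.73 per kb. Of the copies at 50 to 110 bp, 417 faced inward and 329 outward, a ratio of 1.27 around pooled summits and 1.24 ± 0.00216 around replicate summits. In the strongest class 117 faced inward and 111 outward (ratio 1.05), and in the weakest 103 and 83 (1.24), so the excess of inward copies was small at the strongest members. The printed examples were picked for inward-facing pairs and do not show this balance. The ratio was 1.68 in many-peak introns and 1.78 in intergenic regions, around pooled summits. The 1345 members with no other IDR summit within 500 bp had 1.82 copies per kb within 30 bp and 4.01 per kb at 50 to 110 bp. In the 264 members with a neighbour under 250 bp away the densities were 2.24 and 2.27 per kb, so there the shoulders did not stand out.

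Few members held a pair. Inward-facing pairs at 50 to 110 bp were found in 45 members (2.75%), and outward-facing pairs, with CAGTG on the left and CACTG on the right, in 38 (2.32%). The median pooled signal was 402 with an inward-facing pair, 435 with an outward-facing pair and 259 in the 1094 members with no core in those zones. The first 2 values are close. In the replicates, members with an inward-facing pair had a median signal 1.46 times that of members with no core in those zones, with values of 1.44 to 1.48 in the 3 replicates. For members with an outward-facing pair the ratio was 1.64, with values of 1.56 to 1.69, so the signal was high with either orientation. A core at 50 to 110 bp on either side, found in 542 members, went with a smaller difference. Their median signal was 288 pooled and 151, 71.1 and 71.4 in replicates 1, 2 and 3. Without such a core the replicate medians were 144, 65.6 and 65.8. The zones were chosen with their values known, and no test was made. Within 150 bp of summits there were 220 inward-facing and 200 outward-facing combinations of 2 cores. In classes of 20 bp of the distance between the cores, inward-facing ones were most frequent at 140 to 159 bp, with 33 against 18 outward-facing. In the next class, 160 to 179 bp, the 2 orientations were about equal, with 28 inward-facing and 27 outward-facing. Outward-facing ones were most frequent at 0 to 19 bp, with 35 against 15 inward-facing. Only 10 of the 25 strongest members held the core within 100 bp, so a high signal also occurred without it.

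Among 3131 7-mers that were in at least 2% of members (strands joined), 62 were over 2 times as frequent as in flanks, of which 11 contain the core, against 39 of all 3131. The 2% was required at members and not in flanks, which favours high ratios, so the counts and ratios are given as description. The highest ratio, 3.62, belonged to CACTGAG, which was in 94 members (5.75%) and 1.59% of flanks. Next was CACAGTG, which ends in the core, with 8.01% of members against 2.29% of flanks. The third, CAGTGTA, was in 6.54% of members and 1.93% of flanks. AGTGTAG, the fourth, lacks the first base of the core and was in 3.85% of members against 1.25% of flanks. The fifth was CACTGTA, with 6.11% of members and 2.08% of flanks. Around replicate summits these shares had SDs of 0.117 to 0.349 percentage points (n = 3).

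Of 15 other motifs searched by their letters on both strands, most were no more frequent at members than in their flanks. The exception with the most members was the GATA motif (NGATAAG), bound by a family of zinc finger factors of fat body, gut and blood cells. It lay within 100 bp of 201 summits (12.3%, 95% Wilson interval 10.8 to 14.0%), against 9.32% of flanks, 9.78% of many-peak introns, 8.63% of intergenic regions and 10.4% of all IDR regions. Around replicate summits it was in 12.6%, 12.4% and 11.8% of members in replicates 1, 2 and 3, against 10.1%, 10.3% and 10.1% of many-peak introns and 9.07%, 8.73% and 9.04% of intergenic regions. The members were the highest of the 3 sets in every replicate, without a test. The DRE (TATCGATA) was in 7 members (0.428%) against 0.122% of flanks. AP-1 (TGANTCA) and STAT (TTCNNNGAA) were in 6.05% and 5.93% of members, against 5.41% and 5.20% of flanks.

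Other motifs were less frequent at summits. The CTCF core (AGGNGGC) was in 4.65% of members and 7.49% of flanks, and the GAGA repeat (GAGAGAG) in 3.91% of members, 5.38% of flanks and 6.32% of all IDR regions. A looser GAGA spacing (GAGNGAG), which overlaps the repeat, was in 8.44% of members and 11.4% of flanks. Of the E-boxes, CAGCTG was in 7.82% of members and 9.38% of flanks. CAGGTG was in 5.07% of members and 6.60% of flanks, and CACGTG in 2.02% and 2.32%. The CA repeat was in 5.13% of members and 6.45% of flanks, and the short nuclear receptor site (AAGGTCA) in 1.47% and 2.23%. The Zelda motif (CAGGTAG), the BEAF core (CGATAG) and the Mef2 motif were in 0.795%, 3.18% and 2.32% of members, against 1.13%, 3.58% and 2.44% of flanks. These shares were not adjusted for base composition.

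The strongest members were found in every replicate. All 25 of highest pooled signal, from 1289 to 1530.3, had a summit within 100 bp in each replicate list, with ranks of 249 to 567 in replicate 1, 254 to 709 in replicate 2 and 247 to 657 in replicate 3. The rule left out the 300 strongest regions, so these ranks describe its limit. Just outside it, the last intronic regions set aside lay in Tet, tara and sbb, with signals of 1548.0, 1547.7 and 1532. In the 25, 20 members lay in a first intron and 12 were the only member of their host. Of all 1636 members, 69.9% lay in a first intron and 567 were the only member of their host. The members in Wwox, wit, CG9281, CG9674, lama, Fur1, mol and so had another IDR summit 199 to 225 bp away. These may not be separate regions from that neighbour.

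Enzymes of nucleotide and lipid synthesis were among the hosts. Ctps makes CTP from UTP. Its member, 960 bp from the nearest TSS, had signals of 822, 392 and 325 in replicates 1, 2 and 3. Prps encodes phosphoribosyl pyrophosphate synthetase, the entry to nucleotide synthesis, and its member had 726, 278 and 340.0. Baldspot encodes an elongase of long fatty acids. Its member, 1067 bp from the TSS in the first intron, had 722, 406 and 389 and the highest value in replicate 2 of all 1636 members. Wwox encodes an oxidoreductase with WW domains. Its member had the highest value of all members in replicate 1, 898, but 247 in replicate 2, the lowest of the 25 there, and 355 in replicate 3. The order within the 25 was therefore not fixed between replicates.

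Other hosts of the 25 had varied roles. stg encodes the Cdc25 phosphatase that drives entry into mitosis, and the member in its first intron (911 bp long) had 765, 358 and 369. wit encodes a type II receptor for BMP ligands, and its member had 653, 365 and 395, the highest value in replicate 3. ImpL2 encodes a secreted protein that binds insulin-like peptides. Its member, 3198 bp from the nearest TSS in an intron stretch of 8600 bp, had 683, 334 and 368 and held 2 copies of the core. norpA encodes the phospholipase C of phototransduction and had 647, 342 and 322, and IP3K2 encodes an inositol trisphosphate kinase and had 782, 260.2 and 250.3. mol encodes a factor for maturation of the NADPH oxidase Duox, and had 625, 359.5 and 332. Fur1 encodes a furin protease. Its member was the farthest of the 25 from a TSS, at 10280 bp, and had 643, 357 and 308. so encodes a homeodomain factor of eye formation, and its member, in intron 6, had 673, 259 and 352. dy encodes a zona pellucida domain protein of wing cells, with 775, 310.0 and 349.

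The remaining hosts of the 25 were goe, CG44245, CG17834, CG5758, CG34417, upSET, CG9281, CG9674, lama, B4, CG3764 and CG8034. Their members had 610.2 to 849 in replicate 1, 252.5 to 394 in replicate 2 and 291 to 391 in replicate 3. At the other end, the members of lowest signal lay in pxb (152.42), rudhira (152.45) and Ddr (152.45). The one in pxb had 76.8, 33.4 and 28.8 in the replicates. It was matched in all 3 lists, as were the other two.

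**Figure D3:**
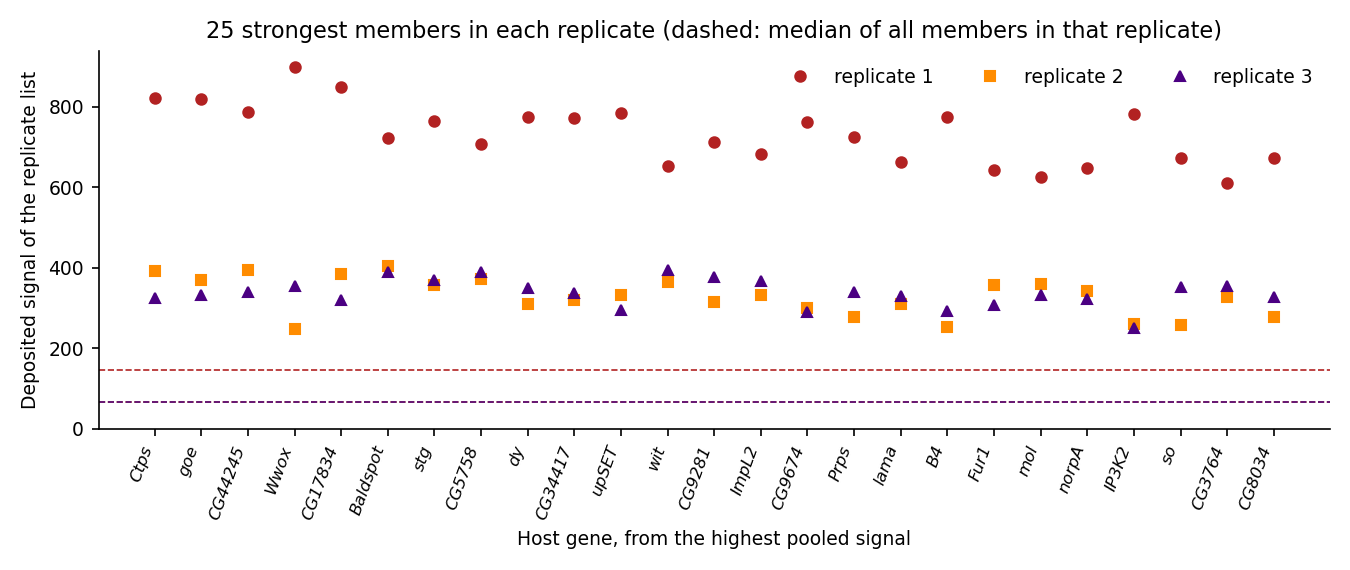
Deposited signal of the 25 strongest members in the lists of replicate 1 (circles), replicate 2 (squares) and replicate 3 (triangles), ordered by pooled signal. Dashed lines are the medians of all members in each replicate (146.7, 67.3 and 67.5, the last 2 overlapping). All 75 points lie above the members' median in their replicate, which the choice of the 25 by a signal pooled from the same replicates largely fixed. The replicates differ in scale.

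Most members recurred, which the IDR filter had selected for. In the full lists 1585 members (96.9%) had a summit within 100 bp in replicate 1, 1518 (92.8%) in replicate 2 and 1505 (92.0%) in replicate 3. All 3 lists held 1378 (84.2%), against a background of 82.4% for all IDR regions, so the members' share is near that of the list. Another 217 were in 2 lists, 40 in 1 and 1 in none. With a matching distance of 50 bp the share in all 3 lists was 55.3%. The mean share per list was 93.9% ± 2.62 at members, 94.3% ± 2.32 in many-peak introns and 94.8% ± 2.36 in intergenic regions (SD, n = 3). The differences were -0.416 ± 0.627 and -0.912 ± 0.871 points, about the spread between replicates (exact p = 0.25, adjusted 0.278, for each). The share in all 3 lists was 97.1% in the strongest class (Wilson interval 94.9 to 98.3%) and 72.1% in the weakest (67.6 to 76.3%). Across the 1378 members, whose signals are not independent replicates, Spearman's rank correlation between replicate pairs was 0.812 ± 0.00344 (SD, n = 3 pairs).

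The rule cut the members, many-peak introns and intergenic regions to the same range of pooled signal, so their heights are given as description. Their ratios were among the 10 comparisons computed, and no conclusion is drawn from those tests. The members' pooled signal had a median of 269 (quartiles 193 and 449), against 285 in many-peak introns and 272 in intergenic regions. In the replicates, the median was 147, 67.3 and 67.5 at members, against 156, 70.6 and 71.9 in many-peak introns. The ratio was 0.944 on average, between 0.939 and 0.953 in the replicates. Against intergenic regions it was 0.981, between 0.9497 and 1.02. Of the members, 987 (60.3%) had the same width of 470 bp. Another IDR summit lay within 250 bp of 264 members (16.1%), which may be shoulders of it.

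Within their hosts, members lay early and close to start sites. A first intron, of any annotated transcript, held 1144 members, or 69.9% (Wilson interval 67.7 to 72.1%), while 49.3% of the hosts' eligible intron sequence was first intron. In many-peak introns these shares were 59.8% (57.6 to 62.1%) of regions and 48.4% of sequence. By the longest transcript alone, 56.2% of members and 34.2% of the sequence were in a first intron. The median member lay 2062 bp from the nearest TSS, 3467 bp downstream of the nearest start of its host and 1030 bp from an exon. Its intron stretch, the distance between flanking exons, was 4951 bp.

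**Figure D4:**
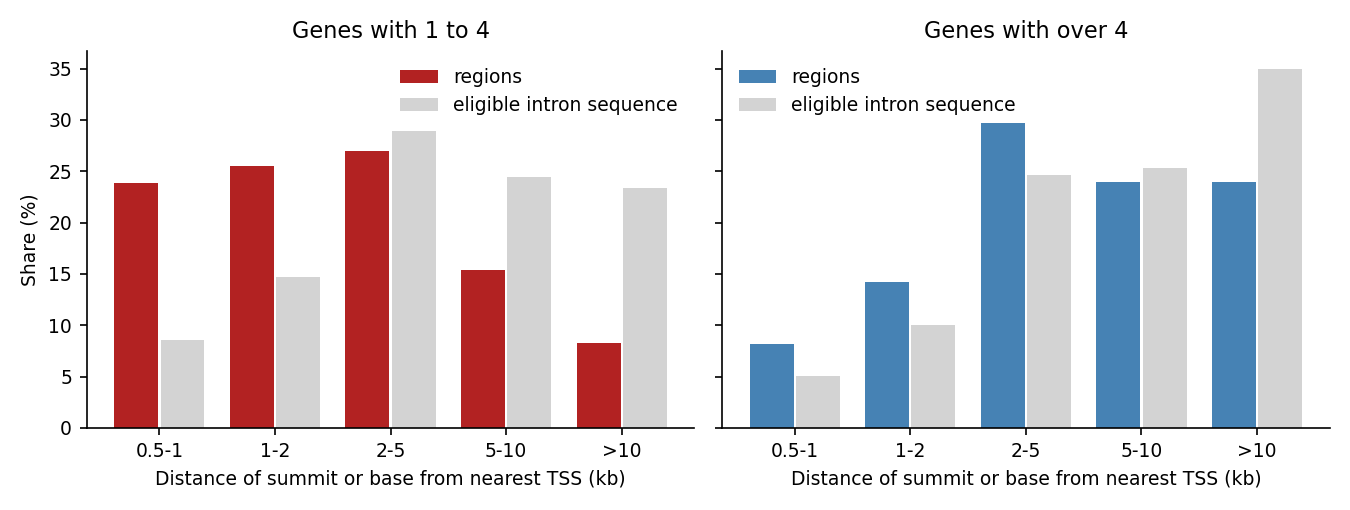
Share of regions (coloured) and of eligible intron sequence of their hosts (grey) by distance from the nearest TSS, for the 1636 members at the left and the 1820 many-peak introns at the right. Between 0.5 and 1 kb lie 23.9% of members and 8.55% of their hosts' eligible sequence, and beyond 10 kb 8.25% and 23.3%.

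Per base the members thinned out with distance from start sites. Their share was 2.80 times that of the eligible sequence between 500 and 1000 bp from a TSS, 1.73 times between 1000 and 2000 bp, 0.932 between 2000 and 5000 bp, 0.627 between 5000 and 10000 bp and 0.354 beyond. The same ratios in many-peak introns were 1.61, 1.41, 1.21, 0.947 and 0.685. The rule chose members on both TSS distance and number per gene, and a gene long enough to offer distant sequence more often exceeds 4, so the 2 gradients are given as description. At equal distance the share in first introns was also higher for members than for sequence. Between 500 and 1000 bp the shares were 83.6% of members and 72.5% of sequence, and between 5000 and 10000 bp 55.8% and 42.7%. At the limit of the rule, an IP3K2 region 501 bp from a TSS (signal 222) was a member, while regions in wde (1012) and Rgl (188) at 500 bp and in Pino (294) at 499 bp were not.

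Most hosts held 1 member. Of 975 hosts, 567 held 1, 217 held 2, 129 held 3 and 62 held 4. The 300 strongest regions were not counted, and 35 hosts also held an intronic region among them. The median pooled signal was 257 for members alone in their host and 279, 276 and 256 for those in hosts of 2, 3 and 4. Just inside the limit, the hosts of 4 with the highest summed signal were sba (2749) and NK7.1 (2596), a homeobox gene whose members had 1001, 909.9, 359.7 and 326. They were followed by Pits (2567), cno (2428), which encodes the junction protein Canoe, and chm (2409), which encodes a histone acetyltransferase. Just outside it, with 5 summits each, were simj (3828), which encodes a subunit of a nucleosome remodelling and deacetylase complex, and the cadherin gene Cad86C (3696). The limit depends on how far down the list is read. In the pooled list of 30000 regions, 463 hosts (47.5%) held over 4 such summits.

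Of the hosts, 943 encoded protein and 32 were non-coding RNA genes. The rule needs an intronic summit over 500 bp from every TSS and takes the longest gene there, so it favours long genes, and host length is given as description. The median host was 15026 bp long, against 45917 bp for hosts of many-peak introns and 2166 bp for all protein-coding genes. Of 13945 protein-coding genes 6.76% held 1 to 4 such summits. By length this was 1.90% of genes of 2 to 5 kb, 13.9% of 5 to 10 kb, 299 of 964 genes of 10 to 20 kb and 268 of 706 of 20 to 50 kb. At 50 to 100 kb it was 28.6%, where 30.8% of genes held over 4. By arm, the members numbered 10.1 per 100 kb of their hosts' eligible sequence on 2L, 11.6 on 2R, 10.6 on 3L, 11.4 on 3R and 10.2 on X. Chromosome 4 held 6 members in 2 hosts. A second gene overlapped 98 members (5.99%), whose host is then the longer gene by rule.

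**Figure D5:**
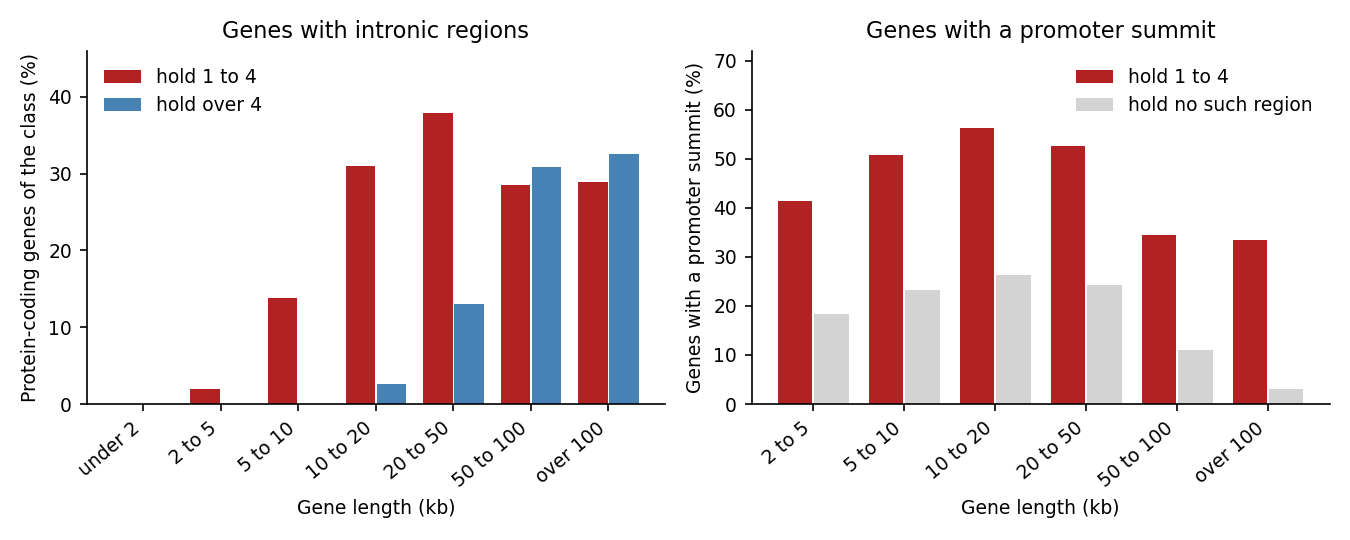
Left, share of protein-coding genes in each length class that hold 1 to 4 (red) or over 4 (blue) intronic summits of the rule. Right, share of genes with an IDR summit within 500 bp of a TSS, among genes with 1 to 4 such intronic summits (red) and among genes with none (grey), from 2 kb upward. In each class shown at the right the red bar is higher, for example 56.2% against 26.3% at 10 to 20 kb.

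Hosts often carried a promoter summit as well, which the rule did not require. The same limit of 500 bp divides promoter summits from members, so neighbouring summits on either side of it give a gene both. Between 500 and 1000 bp from a TSS lay 391 members, and how many had such a neighbour was not counted. An IDR summit lay within 500 bp of a TSS in 479 of 943 protein-coding hosts (50.8%, Wilson interval 47.6 to 54.0%), against 153 of 214 hosts of many-peak introns (71.5%, 65.1 to 77.1%) and a background of 18.1% for all protein-coding genes. With each replicate's 8091 strongest regions and the members matched in that replicate, the shares were 49.6% ± 2.49 of member hosts, 67.0% ± 4.54 of many-peak hosts and 18.3% ± 2.19 of all protein-coding genes (SD, n = 3). Longer genes may have more start sites, so classes of similar length were compared. The number of start sites per gene was not matched, and its part in the difference was not tested. Of genes of 5 to 10 kb, 50.7% of hosts had a promoter summit against 23.2% of genes with no intronic summit of the rule. At 10 to 20 kb the shares were 56.2% and 26.3%, and at 20 to 50 kb 52.6% and 24.3%. Both were lower in longer genes, at 34.4% and 11.0% for 50 to 100 kb and 33.3% and 3.125% over 100 kb.

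Among 9 gene lists, 122 of 591 genes were hosts. The lists were chosen with earlier results known and are described by counts, beside 6.76% of all protein-coding genes and the shares by gene length above. Over 4 intronic summits of the rule were held by 214 of 13945 protein-coding genes. By length this was 1 of 1507 genes of 5 to 10 kb, 25 of 964 of 10 to 20 kb and 92 of 706 of 20 to 50 kb. Of 103 patterning and selector transcription factors (median length 17934 bp), 28 were hosts (27.2%) and 16 held over 4. so, knrl and zfh1 had the strongest members. knrl encodes an orphan nuclear receptor, and its member had 495, 343 and 251 in replicates 1, 2 and 3. zfh1 encodes a zinc finger and homeodomain repressor, and its member had 566, 197 and 227. Of 95 axon guidance and adhesion genes (median 36628 bp), 27 were hosts and 14 held over 4. Sema1a, which encodes a transmembrane semaphorin, had 566, 204 and 272. ft, the giant cadherin Fat, had 458, 175 and 172, and drl, a Wnt receptor of growing axons, had 419.9, 193 and 167.

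Of 106 genes of signalling pathways (median 11839 bp), 27 were hosts and 24 held over 4. ex, which encodes the Hippo pathway protein Expanded, had 605, 317 and 269. Pvr, the receptor for PDGF and VEGF-like ligands, had 618, 225 and 253. sgg, the kinase GSK3, had 522, 221 and 226.

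Ecdysone, the steroid pulse that starts metamorphosis, acts at the stage sampled. Of 28 genes of its response (median 21868 bp) 6 were hosts and 10 held over 4. Hr3 encodes a nuclear receptor of the prepupal cascade, and its member, 516 bp from the nearest TSS, had 391, 244 and 219. Eip78C, another nuclear receptor, had 244, 106 and 104, and Blimp-1, a zinc finger repressor that times pupation, had 193, 79.0 and 102. Of 23 circadian genes, 5 were hosts and 2 held over 4. They were led by sgg, also in the signalling list, qsm (323, 147 and 148) and dco (257, 123 and 63.2), which encodes the casein kinase Doubletime. Of 65 chromatin and boundary genes (median 5746 bp), 11 were hosts and 4 held over 4, with the highest median pooled signal of members, 393. trx, a histone methyltransferase that maintains gene activity, had 508, 259.7 and 259. ph-p, a Polycomb subunit, had 438, 206 and 187, and Trl, which encodes GAGA factor, had 326, 189 and 147.

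The last 3 lists hold genes of neurons and muscle. Of 79 ion channel and synapse genes (median 18416 bp), 11 were hosts (13.9%) and 0 held over 4. Syn, which encodes synapsin, had 450.4, 271 and 297, from intron 8. KCNQ, a potassium channel, had 441, 236 and 268, and Irk1, an inward rectifier, had 463, 254 and 196. Of 64 receptors for peptides, amines and other G protein ligands (median 17577 bp), 4 were hosts (6.25%) and 0 held over 4. Dh44-R2 had 144, 90.4 and 73.9, and mAChR-B had 112, 38.7 and 79.5. Tre1, a receptor of germ cell migration, had 171 and 85.4 in replicates 1 and 2 and no match in replicate 3. Of 40 muscle genes (median 13349 bp), 6 were hosts and 3 held over 4. mbl, the splicing factor Muscleblind, had 233, 67.2 and 106. nau, the fly MyoD, had 185, 86.7 and 97.1, and Zasp52, a protein of the Z-disc, had 120.2, 70.3 and 63.8. In pooled signal the members in Syn, KCNQ and Irk1 had 1023, 969 and 922, and those in mbl, nau and Zasp52 had 396, 370.0 and 259, beside the median of 269 for all members. They were named as the strongest hosts of their lists. No test was made between lists.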

How the data were processed

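Regions came from the authors' deposited lists on dm6, 1 per replicate, 1 pooled, and the optimal IDR list. Per the file headers, replicate lists were made against 1 shared control alignment. Aligner and caller: not given in the sources used here. Values are the authors' deposited signal per region, used within a list, with the deposited summit offset. The IDR list equals the 8091 highest regions of the pooled list. Many regions share 1 width. Depth is unknown, and intervals cover counting error only.

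The members and lists were chosen with earlier results of these data known. Genes and starts came from Ensembl release 115 without transposable elements, and sequence from the Release 6 genome, on 6 arms. Replicate summits were matched within 100 bp. Flanks are windows 500 bp from the summit on either side. Differences between kinds of regions were tested over 3 replicates by an exact two-sided sign-flip permutation. The labels call the replicates biological. Named genes are the hosts of the 25 strongest and 3 weakest members, 5 hosts of 4, hosts beside the limit of 4, the 3 strongest hosts of each list, all motifs and the 5 7-mers of highest ratio. The sequences shown and the members of the pair examples were also chosen after their values were seen. Of 607 list symbols, 8 were not matched, and a further list is not reported here. Functions were tested on simulated sites with planted cores, composition and matches. Alternatives were other TSS distances, limits, matching distances, windows and gene sets, and each replicate left out. Computations ran in Python 3.11.15 with scipy 1.17.1, pandas 2.3.3, numpy 2.4.6, statsmodels 0.14.6 and matplotlib 3.10.9.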

Additional observations from a re-analysis of the deposited data

How the results depend on the processing

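Of 103 alternative values, 84 were within the limits set for a change, 19 moved and 0 reversed direction. A limit of 2 summits per gene left 1001 members and a limit of 8 gave 2564; the other rules gave 1199 to 1863, and leaving out a replicate, by keeping the members matched in both others, 1416 to 1476. The share matched in every replicate list was 55.3% within 50 bp, 95.3% within 250 bp, 96.3% for any overlap and 57.5% among the 8091 strongest regions of each list, and 86.6 to 90.2% without 1 replicate. The share with a core was 18.7% in windows of 50 bp, against 15.2% of flanks, 57.9% at 150 bp, against 40.7%, and 43.6% in members with no other summit within 500 bp. Without 1 replicate it was 43.7 to 44.5%, as the mean of replicate summits. The share in a first intron was 56.2% by the longest transcript and 68.9 to 69.9% without 1 replicate. The G + C difference from flanks was -7.13 points in members with no other summit within 500 bp and -6.40 over 50 bp each side, and -6.73 to -6.54 without 1 replicate. The share of hosts with a promoter summit was 36.5% with a window of 250 bp, against 13.9% of all protein-coding genes. By log2, the ratio of median signal was -0.0891 to -0.0780 over many-peak introns and -0.0582 to -0.00366 over intergenic regions without 1 replicate. The gene lists had 117 to 120 hosts without 1 replicate. Windows, limits and matching distances move these values by construction, and other causes were not tested. The alternatives on isolated summits, the G + C difference and promoter summits were chosen after seeing the data. The samples form 1 group, so no pairing of samples across groups arises, and the differences between kinds of regions were taken within each replicate. Depth limits could not be assessed from these files.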
